A study of Mus musculus with 24 samples.

Results

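Liver X receptors (LXRs) are nuclear receptors that bind oxysterols, and 8 genes of the LXR programme of cholesterol efflux were followed in mouse bone-marrow-derived macrophages. The 8 are the receptors Nr1h3 (LXR alpha) and Nr1h2 (LXR beta) and the targets Apoe, Abca1, Abcg1, Pltp, Mylip and Lpcat3. They were taken by symbol, as named for the pathway, from 23337 gene symbols in the total RNA files and 12660 in the footprint files, and all 8 were found in both. Ribosome footprints, the stretches of mRNA that a translating ribosome shields from nuclease, and total RNA were each sequenced from 12 macrophage cultures. Of these, 6 came from Apobec1-/- mice (KO) and 6 from wild-type mice (WT), all of strain C57BL/6J and aged 6 to 12 weeks, so that the knockout is carried by every cell of the animal. Femoral marrow gave all 12 cultures, which differentiated over 7 days with M-CSF, a macrophage growth factor, at 20 ng/mL, and were fed every 3 days at 40 ng/mL. The labelled protocol names no LXR ligand or lipid load. The labels place the cultures in 3 batches without saying what a batch is: KO1 and WT1 to WT3 are in batch 1, KO2 to KO4 with WT4 in batch 2, and the last 2 of each genotype, numbered 5 and 6, in batch 3. Whether each culture had its own donor animal is not stated, so p-values reflect only the spread of these cultures, possibly technical. The question named by the submitters is the effect of a functional Apobec1, a cytidine deaminase that edits RNA, on translation.

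As background, LXRs sit on DNA as a pair with a retinoid X receptor (RXR), hold target genes down through corepressors such as NCoR1 when no ligand is bound, and turn them on when oxysterols accumulate. In macrophages the targets move cholesterol out of the cell. ABCA1 passes cholesterol and phospholipid to lipid-poor apolipoproteins, ABCG1 passes cholesterol to formed high-density lipoprotein, apolipoprotein E is secreted as an acceptor, and the phospholipid transfer protein encoded by Pltp remodels lipoproteins. Mylip encodes a ubiquitin ligase that sends lipoprotein receptors to degradation, and Lpcat3 encodes an acyltransferase that places polyunsaturated chains on phospholipids.

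The 5 members whose total RNA differed most between batches were Apoe, Abca1, Pltp and Mylip, which were lower in batch 3 than in batch 1, and Lpcat3, which was higher. Their promoters, the 250 bases before an annotated transcription start (RefSeq, build GRCm38.p6), are printed for that reason. Capitals mark the GC box GGGCGG and the TATA motif TATAAA, each searched on both strands, so that a match on the other strand reads CCGCCC or TTTATA. They are chr7:19699189-19699438 on the minus strand for Apoe, chr4:53159896-53160145 on the minus strand for Abca1, chr2:164857709-164857958 on the minus strand for Pltp, chr13:45389492-45389741 on the plus strand for Mylip and chr6:124662854-124663103 on the plus strand for Lpcat3.
Apoe: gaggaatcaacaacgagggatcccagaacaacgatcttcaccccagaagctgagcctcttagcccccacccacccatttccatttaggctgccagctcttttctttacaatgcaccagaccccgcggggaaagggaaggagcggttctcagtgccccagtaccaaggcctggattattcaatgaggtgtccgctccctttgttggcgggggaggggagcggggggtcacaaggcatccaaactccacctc
Abca1: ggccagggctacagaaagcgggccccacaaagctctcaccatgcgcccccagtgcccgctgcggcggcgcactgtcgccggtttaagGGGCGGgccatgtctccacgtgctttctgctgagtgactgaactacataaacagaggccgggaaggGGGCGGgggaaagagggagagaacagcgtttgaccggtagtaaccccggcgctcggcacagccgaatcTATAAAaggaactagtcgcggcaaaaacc
Pltp: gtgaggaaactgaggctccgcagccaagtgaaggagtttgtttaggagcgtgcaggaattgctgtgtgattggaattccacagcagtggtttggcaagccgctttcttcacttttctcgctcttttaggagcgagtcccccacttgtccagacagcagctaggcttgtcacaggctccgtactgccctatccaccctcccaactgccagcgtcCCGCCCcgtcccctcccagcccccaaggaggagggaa
Mylip: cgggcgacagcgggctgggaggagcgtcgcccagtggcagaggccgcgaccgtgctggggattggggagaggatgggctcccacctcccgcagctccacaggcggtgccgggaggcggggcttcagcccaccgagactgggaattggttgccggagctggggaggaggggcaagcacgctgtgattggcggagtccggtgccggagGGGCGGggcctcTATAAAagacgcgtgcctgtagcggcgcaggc
Lpcat3: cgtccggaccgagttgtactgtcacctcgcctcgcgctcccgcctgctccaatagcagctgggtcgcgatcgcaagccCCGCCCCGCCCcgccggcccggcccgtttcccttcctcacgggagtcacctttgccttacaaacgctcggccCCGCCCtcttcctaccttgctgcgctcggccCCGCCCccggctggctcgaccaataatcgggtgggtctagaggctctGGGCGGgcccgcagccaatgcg

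RefSeq windows were found for 7 members, Abcg1 being the other, and there were 10 windows because Apoe has 3 starts and Nr1h3 has 2. TATAAA lay 29 bases before the start in Abca1 and 32 bases before it in Mylip, and was also in 1 of the other Apoe windows, against 12.4% of all 32851 windows of this length. GGGCGG occurred 5 times in Lpcat3, 2 times in Abca1 and 1 time each in Pltp and Mylip, and 32.7% of all windows held it. No base was shared by the 2 motifs in these windows. The LXR element, searched on both strands as AGGTCA repeated with 4 bases between and up to 1 mismatch in each repeat, was in none of the 10 windows and in 1.48% of all windows, and a single exact AGGTCA was also in none of the 10 and in 14% of all. With up to 2 mismatches in each repeat, a search added after the data were seen, 5 of the 10 windows and 47.5% of all held a match. The one in the printed Abca1 window, a promoter known to hold an LXR element of this spacing, has 3 mismatches in all and begins 67 bases before the start, on the other strand. These are matches of letters, not sites, and say nothing of elements elsewhere in the genes.

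Library depth ranged from 5077478 to 12059361 counts in total RNA and from 29561 (WT6) to 3714912 (WT4) in footprints, and 8 of the 12 footprint libraries, all of batch 3 among them, held under 1000000. As the check of the genotype labels, Apobec1 footprints lay between 0 and 24.9 CPM (counts scaled to a fixed library total) in the 6 KO cultures and between 61 and 105 in the 6 WT cultures (log2 difference -3.51, SE 0.29, edgeR adjusted p = 5.13e-08), while its total RNA was higher in KO (log2 difference 1.34). Batch 3 also stood apart from the others in sex-linked genes and in the summed level of macrophage markers. Xist was counted 172 to 386 times in its total RNA libraries against 2 to 11 in the others, and the 4 Y-linked genes looked at had 0 or 1 count against at least 155, so that batch 3 and sex cannot be told apart. The 5 macrophage markers Csf1r, Emr1, Itgam, Cd68 and Fcgr1 were found in every batch, but their summed level was 2996 to 3360.3 CPM in batch 3, 8015 to 12005 in batch 1 and 9257 to 13437 in batch 2. The 9 neutrophil markers summed to 396 to 536 CPM in batch 3, 14.5 to 21 in batch 1, where Ngp was at 0, and 70.3 to 465 in batch 2. The neutrophil sums of batches 2 and 3 overlapped. Single markers did not all follow their sum: Cd68 was 282 to 310.3 CPM in batch 3 against 231 to 270.0 in batch 1, and Mmp9, of the neutrophil list, 1.19 to 3.42 against 6.87 to 10.1. The part of these differences in the batch results below was not tested, and fewer cells of a type cannot be told apart from less RNA per cell.

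Of the receptors, Nr1h3 was not called between batches in total RNA. Levels are in CPM scaled by edgeR's trimmed mean of M-values (TMM), and since they are not per length they are compared between cultures, not between genes. Nr1h3, the isoform found mainly in metabolic tissues and macrophages, stood at 33 in KO1, 36.4 in WT1, 37.4 in WT2 and 37.2 in WT3. In batch 2 it stood at 47.3 in KO2, 39 in KO3, 39.2 in KO4 and 32.3 in WT4. In batch 3 it stood at 37.1 in KO5, 31 in KO6, 52.9 in WT5 and 35.3 in WT6. The 3 batches overlapped, and none of the 3 pairwise batch differences was called by edgeR's quasi-likelihood test at a Benjamini-Hochberg adjusted p of 0.05 (log2 0.19, 0.14 and -0.05 for batch 2 minus 1, 3 minus 1 and 3 minus 2). These values rest on 193 to 439 total RNA counts per culture.

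Nr1h2, the isoform expressed in most tissues, was highest in batch 2. Its total RNA stood at 45.9 in KO1, 44.3 in WT1, 40.2 in WT2 and 46.2 in WT3 CPM in batch 1, at 62.8 in KO2, 66.9 in KO3, 71.2 in KO4 and 74.9 in WT4 in batch 2, and at 30.8 in KO5, 50.2 in KO6, 32.6 in WT5 and 42.9 in WT6 in batch 3. All 4 cultures of batch 2 lay above the other 8. The rise over batch 1 was 1.55-fold (log2 difference 0.64, SE 0.15, edgeR adjusted p = 0.00914), and batch 3 was 1.76-fold below batch 2 (log2 -0.81, edgeR adjusted p = 0.000438). The first of these calls was lost without WT4 (log2 0.53, adjusted p = 0.0711). In batch 2 minus batch 1, 23.5% of the 10942 genes tested in total RNA were called and 3 of the 8 members were, Nr1h2, Apoe and Lpcat3.

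Apoe had the widest range of the members, 44.5 to 5387 CPM. Its total RNA stood at 1654 in KO1, 1617 in WT1, 1799.9 in WT2 and 1782 in WT3 CPM in batch 1. In batch 2 it stood at 5031 in KO2, 1334 in KO3, 5387 in KO4 and 3440.1 in WT4 CPM. In batch 3 it stood at 44.5 in KO5, 48.9 in KO6, 58.9 in WT5 and 50.2 in WT6 CPM, from 315 to 390 counts per library. Within batch 2, KO3 was the lowest, below every culture of batch 1, while the other 3 lay above all of batch 1. Every culture of batch 3 was far below every other. Batch 3 was 33.6-fold below batch 1 (log2 difference -5.07, SE 0.40, edgeR adjusted p = 4.29e-06) and 75.8-fold below batch 2 (log2 -6.24, SE 0.42, adjusted p = 1.33e-06). Of 10942 genes, 25 had a lower value than Apoe in batch 3 minus batch 1. The difference of batch 2 from batch 1 (log2 1.17, SE 0.37, edgeR adjusted p = 0.0416) was lost in 12 of 17 alternatives, 11 of which left out 1 culture, with adjusted p up to 0.123.

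Batch 3 minus batch 1 was a broad difference, with 45.3% of all genes tested in total RNA called, 23% higher and 22.3% lower, and batch 3 minus batch 2 had 49.2% called. Against that, 5 of the 8 members were called in the former, 4 lower and 1 higher, with a median over members of −0.78 beside 0.01 over all genes. In batch 3 minus batch 2, 6 were called, 5 lower and 1 higher, with a median of −0.99 beside 0.01. These contrasts share the batch 3 cultures, and their calls for members in total RNA were kept in each of the 17 alternatives run.

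**Figure D1:**
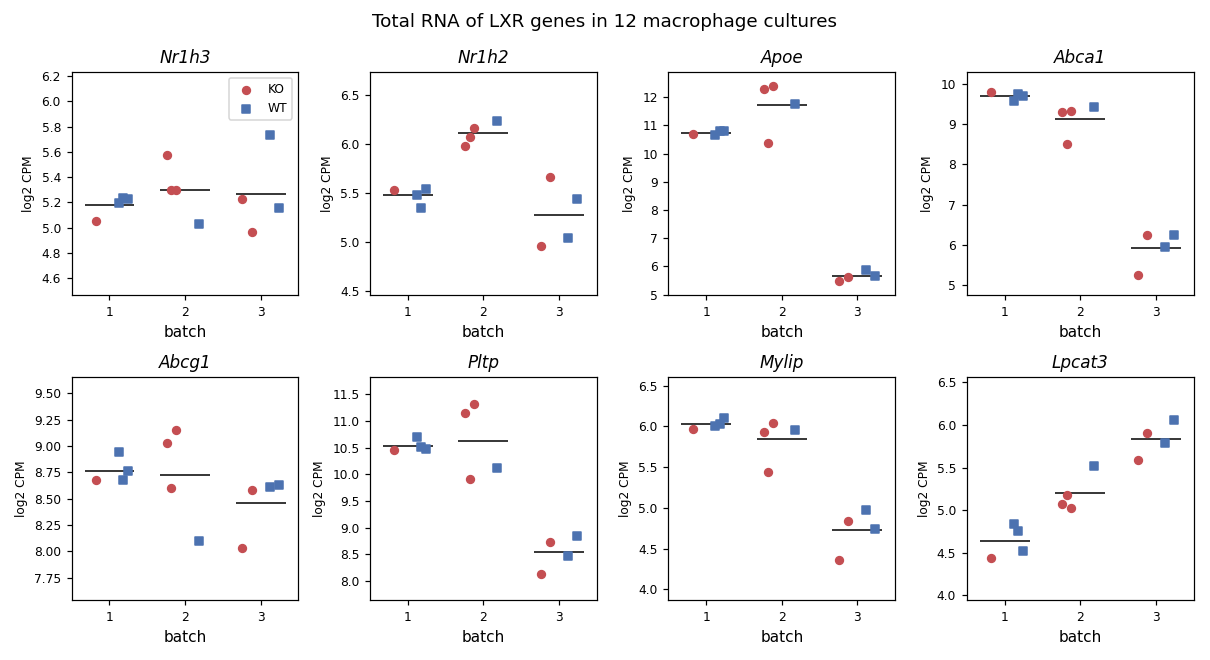
Total RNA of the 8 LXR genes as log2 CPM (prior count 2) on the y axis by batch on the x axis. Circles are KO and squares WT cultures, 1 point per culture, and bars are batch means; axes differ between genes and do not start at 0. Apoe, Abca1, Pltp and Mylip are lowest in the 4 cultures of batch 3, Lpcat3 is highest there, and Nr1h3 and Abcg1 overlap between batches.

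The 2 ATP-binding cassette transporters of cholesterol efflux parted from each other. Abca1 stood at 892 in KO1, 760.2 in WT1, 861 in WT2 and 830.1 in WT3 CPM of total RNA in batch 1. The batch 2 cultures had 627 in KO2, 361 in KO3, 647 in KO4 and 689.7 in WT4, and the batch 3 cultures 37.8 in KO5, 76.1 in KO6, 61.2 in WT5 and 75.5 in WT6. The 3 batches did not overlap, and KO3 was the lowest of batch 2. Batch 3 was 13-fold below batch 1 (log2 difference -3.71, SE 0.24, edgeR adjusted p = 3.96e-07) and 9.53-fold below batch 2 (log2 -3.25, adjusted p = 7.69e-07), and 58 of 10942 genes had a lower value than Abca1 in the former. Batch 2 against batch 1 was not called (log2 -0.45, SE 0.23, edgeR adjusted p = 0.166).

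Abcg1 was not called between batches in total RNA. It stood at 409 in KO1, 491 in WT1, 408 in WT2 and 434 in WT3 CPM of total RNA in batch 1. The batch 2 cultures had 522 in KO2, 387 in KO3, 569 in KO4 and 274 in WT4, and the batch 3 cultures 262 in KO5, 381 in KO6, 389 in WT5 and 396 in WT6. The batches overlapped, and WT4 and KO5 were the lowest 2 cultures. The log2 difference of batch 3 from batch 1 was -0.30 (SE 0.20, edgeR adjusted p = 0.247), beside -3.71 for Abca1 in the same fit. Batch 3 minus batch 2 was -0.26 (adjusted p = 0.328), and it was called with limma voom (-0.48, adjusted p = 0.0338) and without WT4 (-0.58, adjusted p = 0.0114).

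**Figure D2:**
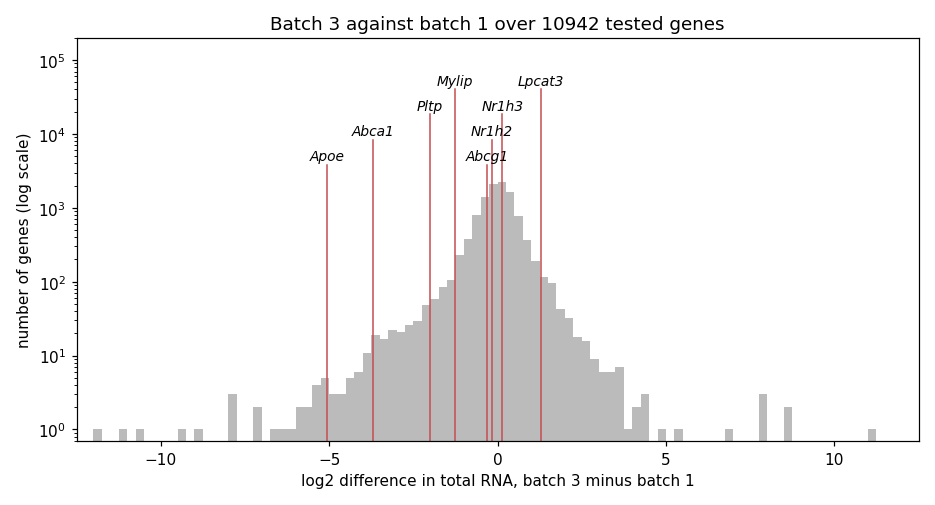
Histogram of the log2 difference in total RNA, batch 3 minus batch 1, over all 10942 genes tested, with the number of genes on a log y axis. Red lines mark the 8 LXR genes; Apoe at −5.07 and Abca1 at −3.71 lie in the lower tail, and Nr1h3, Nr1h2 and Abcg1 lie near 0.

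Pltp was the third target with a large batch difference. Its total RNA stood at 1411 in KO1, 1660.5 in WT1, 1464 in WT2 and 1424 in WT3 CPM in batch 1. The batch 2 cultures had 2266 in KO2, 965 in KO3, 2559.9 in KO4 and 1114 in WT4, and the batch 3 cultures 281 in KO5, 422 in KO6, 355 in WT5 and 456 in WT6. As for Apoe, KO3 was the lowest culture of batch 2, and KO2 and KO4 were the highest 2 of all 12. All 4 cultures of batch 3 lay below the other 8, 4.00-fold below batch 1 (log2 difference -2.0, SE 0.30, edgeR adjusted p = 0.000309) and 4.44-fold below batch 2 (log2 -2.15, adjusted p = 0.000249). Batch 2 did not differ by the test from batch 1 (log2 0.15, SE 0.33, edgeR adjusted p = 0.774).

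Mylip, the ubiquitin ligase, stood at 62.5 in KO1, 64.2 in WT1, 64.9 in WT2 and 68.6 in WT3 CPM of total RNA in batch 1. The batch 2 cultures had 60.9 in KO2, 43.2 in KO3, 65.5 in KO4 and 62 in WT4, and the batch 3 cultures 20.3 in KO5, 28.2 in KO6, 31.1 in WT5 and 26.5 in WT6. Batch 3 lay below all others, 2.39-fold below batch 1 (log2 difference -1.26, SE 0.14, edgeR adjusted p = 1.16e-05) and 2.24-fold below batch 2 (log2 -1.17, adjusted p = 2.25e-05). Of the lipoprotein receptors that Mylip is known to degrade, Lrp8 RNA was called higher in batch 3 than in batch 1 (log2 2.39). Vldlr RNA was called lower (-2.04), where 45.3% of all genes were called, 23% higher and 22.3% lower. Vldlr stood at only 0.605 to 3.39 CPM in batch 3. In WT5, 3 counts equal 0.453 CPM, so the Vldlr differences of batch 3 rest on few counts. Batch 3 minus batch 2, where 49.2% of all genes were called, called Lrp8 higher (1.85) and Vldlr lower (-1.50). That Vldlr call was lost without WT4 (-0.82, edgeR adjusted p = 0.0762). Neither receptor was called in batch 2 minus batch 1 (log2 0.54 for Lrp8 and -0.55 for Vldlr).

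Lpcat3 was the member that went the other way. Its total RNA stood at 21.4 in KO1, 28.3 in WT1, 26.8 in WT2 and 22.6 in WT3 CPM in batch 1. In batch 2 it stood at 33.4 in KO2, 36.1 in KO3, 32.3 in KO4 and 45.4 in WT4 CPM. In batch 3 it stood at 47.7 in KO5, 59.9 in KO6, 55.2 in WT5 and 66.6 in WT6 CPM. No culture overlapped with another batch, with batch 1 lowest and batch 3 highest. The log2 difference was 0.70 for batch 2 minus 1 (SE 0.12, edgeR adjusted p = 0.00194), 1.28 for 3 minus 1 (SE 0.11, adjusted p = 2.04e-06) and 0.58 for 3 minus 2 (SE 0.11, adjusted p = 0.000953). Counts behind these values were 159 to 452 per library.

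The footprints, counted over coding sequence, were, like total RNA, lowest in the 4 cultures of batch 3 for Apoe, Abca1 and Pltp, while those of Lpcat3 overlapped between batches. Of 7 members tested (Nr1h3 did not pass the count filter in footprints), 4 were called in batch 3 minus batch 1, 3 lower and 1 higher, where 20.8% of 7208 genes were called, 9.54% higher and 11.2% lower. Apoe footprints stood at 4938 in KO1, 5268 in WT1, 6479.6 in WT2 and 5613 in WT3 CPM in batch 1, at 11587 in KO2, 3307 in KO3, 14401 in KO4 and 8499 in WT4 in batch 2 and at 126 in KO5, 75.9 in KO6, 221 in WT5 and 274 in WT6 in batch 3. The last 4 values rest on 27, 7, 47 and 10 counts, and lay below all others. The difference of batch 3 from batch 1 was -5.04 in log2 (SE 0.57, edgeR adjusted p = 0.000369), beside -5.07 in total RNA.

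Abca1 footprints stood at 937 in KO1, 798 in WT1, 989 in WT2 and 886 in WT3 CPM in batch 1, at 622 in KO2, 346 in KO3, 623 in KO4 and 674 in WT4 in batch 2 and at 41.9 in KO5, 54.2 in KO6, 61 in WT5 and 82.2 in WT6 in batch 3. The 3 batches did not overlap, as in RNA, and the batch 3 values rest on 3 to 13 counts. The log2 difference was -4.00 for batch 3 minus 1 (SE 0.26, edgeR adjusted p = 1.84e-13) and -3.42 for 3 minus 2 (adjusted p = 1.29e-11). For batch 2 minus 1 it was -0.59 (adjusted p = 0.0179), a call lost with DESeq2, with limma voom, in the 4 deepest libraries alone and without KO1, where adjusted p reached 0.398.

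Pltp footprints ranged over 5565 to 6499 CPM in batch 1, 3068 to 7293 in batch 2 and 1393 to 2056 in batch 3, whose 4 cultures were the lowest. The log2 difference was -1.89 for batch 3 minus 1 (SE 0.33, edgeR adjusted p = 0.00317) and -1.57 for 3 minus 2 (adjusted p = 0.009, or 0.0545 without KO5). Lpcat3 footprints were higher in batch 3 than in batch 1 (log2 1.14, adjusted p = 0.009) and batch 2 (0.89, adjusted p = 0.0285), on 1 to 29 counts per batch 3 library. The first call was lost without WT5 (log2 0.62, adjusted p = 0.374). The other was lost without KO2, WT4, KO6 or WT5, with adjusted p up to 0.464, and in batch 3 minus batch 2 22.5% of genes were called.

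Mylip footprints were 23.2 to 56.1 CPM in batch 1, 26.7 to 36.5 in batch 2 and 0 to 32.9 in batch 3. KO5 and WT6 had 0 Mylip footprints, which allows up to 14 and 82.2 CPM by a limit of 3 counts per library, for counting error only. Mylip was not called in footprints (batch 3 minus 1, log2 -1.37, SE 0.57, edgeR adjusted p = 0.0913), and a fall of the size seen in RNA was within its error at this depth. Without a count filter, or without KO1, Mylip, Nr1h2 and Abcg1 were called lower as well, which made 7 members. The fits that left out 1 culture called 990 to 1591 genes in this contrast, against 1498 in the main fit. The share of all genes called without the filter is not given here, so the 7 cannot be set beside it.

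In batch 2 minus batch 1, 3 of 7 members were called lower in footprints, Nr1h2, Abcg1 and Abca1, where 15.4% of genes were called and 7.37% were called lower. Nr1h2 footprints stood at 36.5 in KO1, 47.7 in WT1, 49.4 in WT2 and 33.5 in WT3 CPM in batch 1 and at 25.9 in KO2, 24.6 in KO3, 14.6 in KO4 and 15.1 in WT4 in batch 2. The groups did not overlap (log2 -1.18, SE 0.27, edgeR adjusted p = 0.00279), and the direction was opposite to that of its total RNA. Abcg1 footprints stood at 530.5 in KO1, 659 in WT1, 699 in WT2 and 601 in WT3 CPM in batch 1 and at 472 in KO2, 367 in KO3, 513 in KO4 and 253 in WT4 in batch 2, also with no overlap (log2 -0.71, adjusted p = 0.0147). Both calls were lost with limma voom and without WT4, the latter with adjusted p of 0.226 for Nr1h2 and 0.414 for Abcg1.

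**Figure D3:**
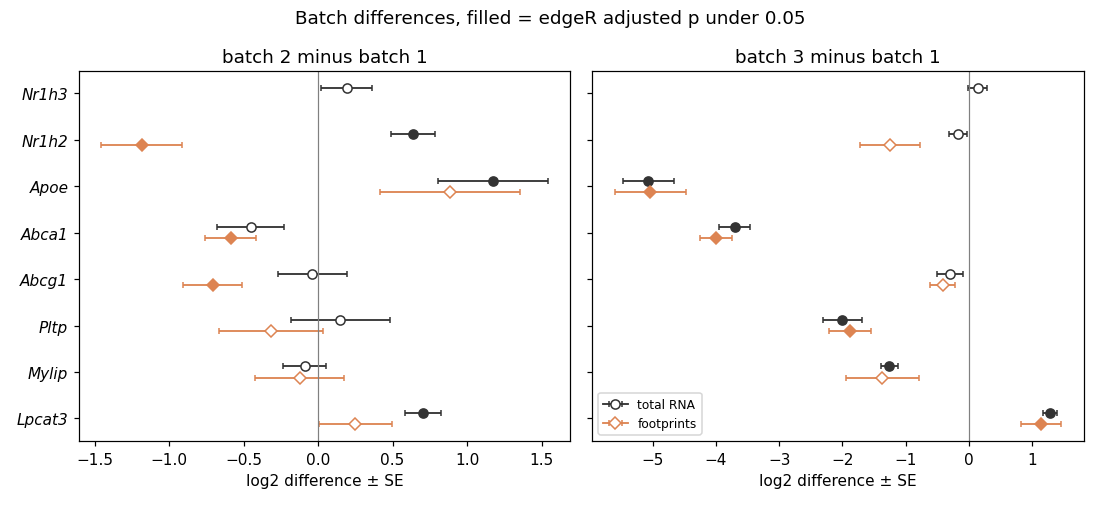
Log2 difference between batches on the x axis for each LXR gene in total RNA (circles) and footprints (diamonds). Bars are standard errors derived from the F statistic of the test, and the 2 panels have different x scales. Filled symbols have an edgeR adjusted p under 0.05. In batch 3 minus batch 1, RNA and footprints of Apoe, Abca1, Pltp and Lpcat3 lie close together; in batch 2 minus batch 1, those of Nr1h2 lie on opposite sides of 0.

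The ratio of footprint CPM to total RNA CPM in a culture describes how many footprints a gene had for its RNA. The counted regions may differ between the file kinds, so a ratio is compared between cultures for 1 gene. Apoe ratios stood at 2.99 in KO1, 3.26 in WT1, 3.60 in WT2 and 3.15 in WT3. In batch 2 they stood at 2.30 in KO2, 2.48 in KO3, 2.67 in KO4 and 2.47 in WT4, and in batch 3 at 2.83 in KO5, 1.55 in KO6, 3.74 in WT5 and 5.46 in WT6. All 4 of batch 2 lay below all 4 of batch 1, and batch 3 spread over both. The Apoe difference of batch 2 from batch 1 was not called (log2 -0.25, SE 0.63, edgeR adjusted p = 0.888), where 10% of 10747 genes were called. Abca1 ratios stayed between 0.957 and 1.15 in batches 1 and 2 and ran from 0.713 to 1.11 in batch 3, while its RNA spanned 37.8 to 892 CPM over the same cultures. Pltp ratios were 3.91 to 4.44 in batch 1, 2.75 to 3.24 in batch 2 and 3.55 to 5.80 in batch 3. Abcg1 ratios were 1.30 to 1.71, 0.903 to 0.949 and 1.11 to 1.58. For Abca1, Pltp and Abcg1, too, all of batch 2 lay below all of batch 1. None of these differences was called in the main fit (log2 -0.09, -0.42 and -0.63). How many of all genes had ratios that did not overlap between these batches was not counted.

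Nr1h2 had the clearest ratio difference. Its ratios stood at 0.794 in KO1, 1.08 in WT1, 1.23 in WT2 and 0.725 in WT3 in batch 1. In batch 2 they stood at 0.412 in KO2, 0.367 in KO3, 0.204 in KO4 and 0.202 in WT4, and in batch 3 at 0.454 in KO5, 0.432 in KO6, 0.575 in WT5 and 0.639 in WT6. All of batch 2 lay below all of batch 1 and of batch 3. The ratio was 3.48-fold lower in batch 2 than in batch 1 (log2 difference -1.80, SE 0.30, edgeR adjusted p = 0.000259, from the interaction of batch and molecule over all 24 libraries), in a contrast where 10% of 10747 genes were called 5.48% higher and 4.56% lower. It was the only member called, and the call was lost without WT4 (log2 -1.28, adjusted p = 0.101). Since the 2 libraries of a culture share a title, the fit was repeated with the culture as a block. That fit called 2311 genes in place of 1079 and 4 members, Nr1h2 (log2 -1.85, adjusted p = 5.55e-11), Abcg1 (-0.57, 0.000454), Pltp (-0.42, 0.0151) and Nr1h3 (-0.87, 0.0421), all lower in batch 2. Nr1h3 did not pass the count filter in footprints alone, and had 4 to 58 footprints per library in batches 1 and 2.

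**Figure D4:**
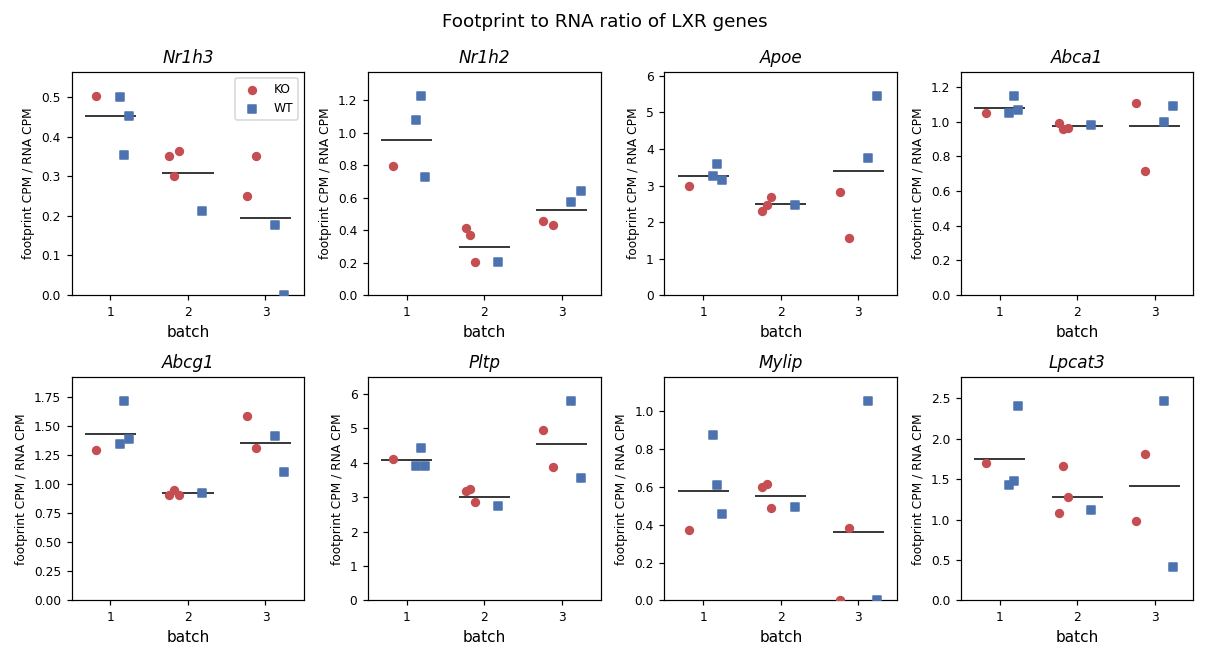
Ratio of footprint CPM to total RNA CPM on the y axis, from 0, by batch on the x axis, for each LXR gene. Circles are KO and squares WT cultures, and bars are batch means; y scales differ between genes, and batch 3 ratios rest on few footprints. Nr1h2 and Abcg1 ratios are lowest in the 4 cultures of batch 2, and Abca1 ratios lie near 1 in batches 1 and 2.

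No member was called for its ratio in batch 3 minus batch 1, where 0.633% of genes were called. The log2 difference of the ratio was -0.09 for Apoe (SE 0.70), -0.42 for Abca1 (SE 0.45), -0.02 for Pltp (SE 0.48) and -0.26 for Lpcat3 (SE 0.32). The largest sizes were -1.46 for Nr1h3 (unadjusted p = 0.0248, edgeR adjusted p = 0.342) and -1.21 for Nr1h2 (unadjusted p = 0.0183, adjusted p = 0.303), genes with 0 to 4 footprints in each batch 3 library. This contrast depends on scaling: the median over all genes was −0.15 with TMM and −0.03 with DESeq2 size factors, a shift of 0.11, and the share of called genes that were higher went from 41.2% to 65.7%. With DESeq2 size factors the Apoe value turned to 0.02 and that of Pltp to 0.11.

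Between genotypes, none of the 8 members was called in total RNA, where 2 of 10942 genes (0.0183%) were. Apoe stood at a lowest of 44.5, a median of 1494 and a highest of 5387 CPM in KO, and at 50.2, 1699.5 and 3440.1 CPM in WT. The spread within each genotype followed the batches, and the batch-adjusted log2 difference of KO from WT was -0.05 (SE 0.30, edgeR adjusted p = 0.987). With KO and WT unevenly spread over batches, leaving out the batch term moved that value to 0.63, also not called. The other log2 differences were -0.16 for Abca1 (SE 0.19), 0.07 for Abcg1 (0.19), 0.10 for Pltp (0.27), -0.16 for Mylip (0.12), -0.10 for Nr1h3 (0.14) and 0.01 for Nr1h2 (0.12).

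Lpcat3 had the smallest unadjusted p of the members. Its log2 difference was -0.28 (SE 0.10, unadjusted p = 0.0147, edgeR adjusted p = 0.859), with 512 genes at an unadjusted p under 0.05. The mean KO minus WT difference of its log2 CPM was −0.26 in batch 1, −0.42 in batch 2 and −0.18 in batch 3. Lpcat3 lies on chromosome 6 at 124663094 to 124704716 (GRCm38.p6), 2.06 Mb from the end of Apobec1, the targeted gene, at 122577792 to 122603024. A link between this position and the uncalled difference was not tested.

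**Figure D5:**
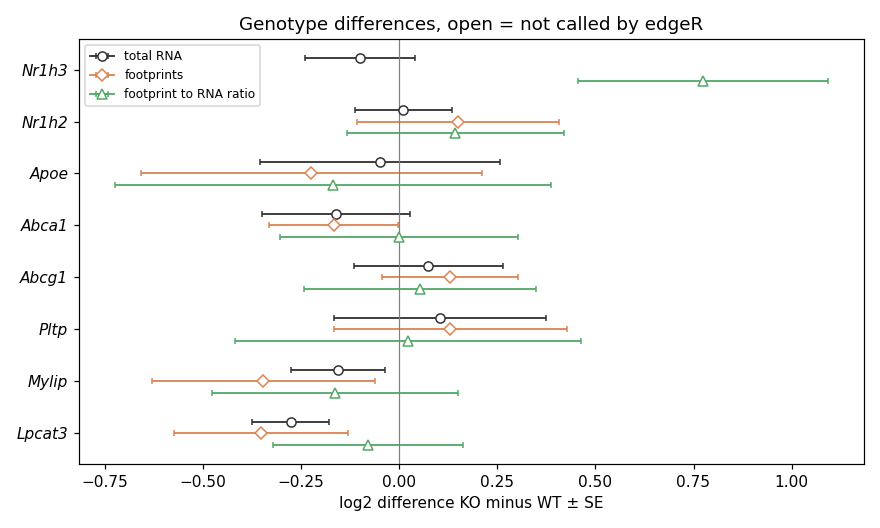
Log2 difference KO minus WT on the x axis for each LXR gene in total RNA (circles), footprints (diamonds) and footprint to RNA ratio (triangles). Values are from fits with batch as a term over 6 KO and 6 WT cultures, and bars are standard errors derived from the F statistic of the test. All symbols are open because none had an edgeR adjusted p under 0.05; Nr1h3 has no footprint value because it did not pass the count filter there.

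For Abcg1 the genotype by batch interaction did not pass the test. The mean log2 CPM difference of KO from WT was −0.11 in batch 1, where KO1 is the lone KO culture, 0.83 in batch 2, where WT4 is the lone WT culture, and −0.31 in batch 3. That interaction in total RNA, added after the data were seen, had an unadjusted p of 0.00812 for Abcg1 and an edgeR adjusted p of 0.164. None of the 8 members was called by it, and 0.987% of genes were. For Pltp the within-batch values were −0.10, 0.67 and −0.22, and without WT4 the genotype difference was -0.21 for Abcg1 and -0.16 for Pltp.

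In footprints, 0 of 7 members tested were called between genotypes, where 0.0832% of genes were called. The log2 differences ran from -0.35 for Lpcat3 (SE 0.22, edgeR adjusted p = 0.739) to 0.15 for Nr1h2 (SE 0.26, adjusted p = 0.954). In the 4 footprint libraries of at least 1000000 counts, WT1, KO2, KO4 and WT4, 1413 of 9725 genes were called, among them Apoe (log2 0.61, edgeR adjusted p = 0.0041), Abcg1 (0.96, 1.26e-07), Nr1h3 (1.17, 0.0123) and Pltp (1.24, 4.26e-11), all higher in KO. That fit has 1 residual degree of freedom and compares KO2 and KO4 with WT4 alone. KO3, the remaining KO culture of batch 2, had 3307 CPM of Apoe footprints against 11587 and 14401 in KO2 and KO4 and 8499 in WT4.

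For the footprint to RNA ratio, 0 of 8 members were called between genotypes and 0.0093% of 10747 genes were, that gene being Apobec1. Nr1h3, which passed the joint filter over 24 libraries, had the largest value (log2 0.77, SE 0.32, unadjusted p = 0.0213, edgeR adjusted p = 1), from 213 footprints over all 12 libraries. The other members lay between -0.17 (Apoe, SE 0.56) and 0.14 (Nr1h2, SE 0.28). In the authors' deposited table over all genes, every member had an adjusted p of 1, with log2 fold changes from −0.25 for Nr1h3 to 0.69 for Nr1h2. That table does not name its direction or contrast; its value for Apobec1 in the authors' deposited table is 4.88, of opposite sign to the KO minus WT ratio here (-4.87).

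Of 6 partners and cofactors tested in total RNA, batch 3 minus batch 1 called 2, both lower: Rxra, the partner receptor (log2 -1.16), and Ncoa1, a coactivator (-0.55). That is a smaller share than the 45.3% called over all genes, where 22.3% were called lower. The list median was −0.19 beside 0.01 over all genes. Batch 2 minus batch 1 called only Gps2, a corepressor subunit, higher (log2 1.1, edgeR adjusted p = 0.0022). In that contrast, 23.5% of all genes were called and 12.7% were called higher. In footprints, Ncoa1 (log2 -0.95) was called lower in batch 3 than in batch 1 among 5 tested. Over all genes, 20.8% were called in that footprint contrast and 11.2% were lower. The Ncoa1 call was lost in 6 of the 12 fits that left out 1 culture (WT1, WT3, WT4, KO5, KO6 or WT5). In batch 3 minus batch 2, where 49.2% of all genes were called and 24.5% were lower, 4 of the 6 were called in total RNA, all lower: Rxra (log2 -1.53), Ncor1, a corepressor (-0.43), Ncoa1 (-0.76) and Gps2 (-1.11).

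Other LXR targets went both ways. Of 10 tested in total RNA, 4 were called higher and 5 lower in batch 3 than in batch 1, with a median of −0.59, where 23% of all genes were called higher and 22.3% lower. The 4 higher were genes of fatty acid synthesis and its control: Scd1 (log2 4.82), Scd2 (4.07), Fasn (1.06) and Srebf1 (0.52). Scd1 stood at only 0.478 to 1.57 CPM in batch 1, where 3 counts equal 0.248 CPM in WT1 and 0.397 in KO1. Its differences from batch 1 therefore rest on few counts there. The 5 lower were Mertk (-3.26), the receptor for apoptotic cells, Apoc2 (-3.16), the lipoprotein lipase cofactor that lies in a cluster with Apoe, Cd5l (-2.58), a secreted macrophage protein, Lpl (-1.02), lipoprotein lipase, and Arl4c (-0.70), a small GTPase. In batch 2 minus batch 1, where 23.5% of all genes were called, 5 of the 10 were higher and 2 lower. The higher ones were Scd1 (log2 3.70), Scd2 (2.54), Fasn (0.57), Srebf1 (0.53) and Apoc2 (1.23), and the lower ones Cd5l (-1.65) and Lpl (-0.84). WT4 stood apart in this contrast, with Scd1 at 24.9 CPM against 1.42 to 5.05 in KO2, KO3 and KO4, and Scd2 at 240.2 against 21.9 to 84.5. Without WT4, Scd1 was 2.19 (edgeR adjusted p = 0.0327), and the calls of Scd2 (1.53, 0.116), Fasn (0.28, 0.412), Apoc2 (1.00, 0.191) and Lpl (-0.43, 0.179) were lost. Fasn was also lost without 7 other single cultures, Lpl without 4 others and Apoc2 without 3 others.

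In batch 3 minus batch 2, where 49.2% of all genes were called, 2 of these targets were higher, Scd2 (log2 1.53) and Fasn (0.49), and 4 lower, Apoc2 (-4.39), Mertk (-3.00), Cd5l (-0.92) and Arl4c (-0.92). The Scd2 call was lost without 6 of the single cultures and the Fasn call without 5, with adjusted p up to 0.097 and 0.158. In footprints, batch 3 minus batch 1 called 3 of 9 higher (Srebf1, Scd2 and Fasn) and 4 lower (Apoc2, Mertk, Cd5l and Lpl), where 20.8% of all genes were called. Mertk and Apoc2 had 0 to 3 footprints in each batch 3 library. The Srebf1 call was lost without 5 of the single cultures and the Apoc2 call without KO5. The batches differ in genotype makeup and sex as given above.

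Genes of cholesterol and oxysterol handling also went both ways. Of 10 tested in total RNA, 7 were called in batch 3 minus batch 1, beside 45.3% of all genes. The 3 called higher were Scarb1, the scavenger receptor for high-density lipoprotein (log2 1.17), Npc2 (0.32), a lysosomal cholesterol carrier, and Nceh1 (0.23), a cholesteryl ester hydrolase. The 4 called lower were Ch25h (-2.52) and Cyp27a1 (-2.41), enzymes that make the LXR ligands 25- and 27-hydroxycholesterol, Lrp1 (-1.18), an apolipoprotein E receptor, and Lipa (-0.35), the lysosomal lipase. Of these calls, Nceh1 was lost without 8 of the single cultures, Lipa without 6 and Npc2 without WT3 or WT5. Ch25h stood at only 0.453 to 0.847 CPM in batch 3, against 2.57 to 4.76 in batch 1. In WT5, 3 counts equal 0.453 CPM, so the Ch25h differences of batch 3 rest on few counts. The median of the list was 0.03, close to that of all genes. In footprints, batch 3 minus batch 1 called Scarb1 higher (log2 2.28) and Lrp1 (-1.50) and Cyp27a1 lower among 9 tested. Over all genes, 20.8% were called in footprints, 9.54% higher and 11.2% lower. Cyp27a1 had 11 to 54 footprints per library in batch 1, 1 in KO5 and 0 in the other 3 of batch 3, so no fold is given. In batch 3 minus batch 1, Scarb1 was called higher for its ratio (log2 0.99, edgeR adjusted p = 0.0379), where 0.633% of genes were called. That contrast depends on scaling, as given above, and the Scarb1 ratio was not refitted with single cultures left out. In batch 2 minus batch 1 (23.5% of all genes called), Scarb1 (log2 1.06) and Abca7, an ATP-binding cassette transporter (0.59), were called higher in total RNA and Lipa (-0.61) and Nceh1 (-0.44) lower. Without WT4 the calls of Abca7 (0.24, edgeR adjusted p = 0.359), Lipa (-0.39, 0.0563) and Nceh1 (-0.34, 0.0527) were lost, and Abca7 was also lost without 4 other single cultures. In batch 3 minus batch 2 (49.2% called), Npc1, which moves cholesterol out of lysosomes (log2 0.30), and Nceh1 (0.67) were called higher, and Ch25h (-2.56), Cyp27a1 (-2.61), Lrp1 (-0.89) and Abca7 (-0.64) lower. Abca7 was lost without WT4 (-0.35, edgeR adjusted p = 0.0656) and Npc1 without KO2, KO5 or KO6.

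Between genotypes, none of the tested genes of the 4 lists was called in total RNA, footprints or ratio. The largest in total RNA were Scd1 (log2 -1.26, SE 0.48) and Scd2 (-1.06, SE 0.45), both with an edgeR adjusted p of 0.859. In the other lists they were Ch25h (0.43) and Lrp1 (0.27), Vldlr (0.43) and Lrp8 (-0.11), and Gps2 (-0.19) and Rxra (-0.19).

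Genes whose total RNA pattern was most like that of a member were found by the root mean square difference of centred log2 CPM over the 12 cultures, among 10941 other genes tested. Nearest to Apoe were C1qa, a complement subunit made by macrophages (0.32), and Tmem176a (0.46). Nearest to Abca1 were Abca9, another ATP-binding cassette gene (0.29), and Rhobtb1 (0.35). Pltp lay nearest to Adap2 (0.23) and Tmcc3 (0.24), and Mylip to Osbpl11 (0.13) and Irf8 (0.15). Lpcat3 lay nearest to Csda (0.16) and Haus7 (0.18), Abcg1 to Ptafr and Fam113a (0.15 each), Nr1h3 to Hdac8 (0.10) and Rbm8a (0.11), and Nr1h2 to Deaf1 (0.08) and Sfpi1 (0.11). Small values are easier to reach for genes of small range, such as Nr1h3, whose log2 CPM spanned 0.77 against 6.91 for Apoe. Among the members themselves, Abcg1 and Nr1h3 were closest (0.31) and Apoe and Lpcat3 farthest apart (3.11).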

How the data were processed

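For each library the authors deposited raw counts by gene symbol: 12 total RNA libraries, marked strict with no stated region, and 12 footprint libraries, counted over coding sequence per the file names. The submitters' processing notes name build mm10, HTSeq, DESeq, DESeq2, Cufflinks 2.2.1, TopHat2 2.1.0, Bowtie 1.1.2 and Trim Galore, with no role or order. Symbols absent from a file were taken as 0, and the 5 HTSeq summary lines per file stayed out of library sizes. Reads with no single alignment were 27.8% to 51.2% of total RNA and 45.6% to 80.1% of footprint reads. Strand use was not given in the sources used here, so overlapping genes cannot be separated.

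Whole tables were fitted with edgeR 4.0.16 (R 4.3.3; robust quasi-likelihood test, TMM, filterByExpr minimum count 10) with genotype and batch, and for the ratio with molecule and its interactions over 24 libraries; p-values were adjusted by Benjamini-Hochberg over all genes and called under 0.05. Each SE was derived from the edgeR test, as the absolute log2 difference divided by the square root of its F statistic. Total RNA and footprint libraries of a culture share its title, and their deviations correlated between 0.0055 and 0.559 across genes. Alternatives were DESeq2 1.42.0, limma 3.58.1 voom, DESeq2 size factors, no filter, terms dropped, batches, shallow libraries or single cultures left out, and replicate blocks. The ratio of batch 3 to batch 1, the genotype by batch test, list genes with each culture left out and the looser promoter search were added after the data were seen. Only the genotype difference was tested on simulated counts, which held no batch differences. The authors also deposited DESeq2-style tables with a signal column (the mean of normalized counts), a log2 fold change, its standard error, a score, p-values and adjusted p-values, per the file headers. No 2 libraries were identical. Members, gene lists and markers were chosen with earlier results of these data known, and the text names all 8 members, every list gene called in total RNA and, where a list had none called, its 2 largest differences. Uncalled list genes that are not named stay in the counts. A few further genes of these lists are not reported here and enter no count, median or sum.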

Additional observations from a re-analysis of the deposited data

Results flagged for a closer look

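Within a genotype, a culture was singled out by its gap to the nearest other culture, as a share of the range over the 6. The gap had to pass Dixon's 95% limit, and 4 of 48 groups passed it. Chance passes about 1 in 20 where the 6 values come from 1 normal population. Each group here mixes 3 batches, so that rate need not hold. Nr1h3 total RNA was highest in WT5 at 52.9 CPM, against 37.4 in the next WT culture. Nr1h2 total RNA was highest in WT4 at 74.9 CPM, against 46.2 in the next; WT4 is the lone WT culture of batch 2, whose KO cultures stood at 62.8 to 71.2 CPM. Lpcat3 footprints were highest in KO6 among KO at 108 CPM, against 59.8 in the next, and in WT5 among WT at 136 CPM, against 54.5 in the next. Those Lpcat3 values rest on 10 and 29 counts in batch 3 libraries.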

How the results depend on the processing

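Over the 1541 alternative values of single members, 1388 kept their direction and side of the threshold, 99 turned sign, 28 lost a call and 26 gained one. The calls for members in total RNA in batch 3 minus batch 1 and batch 3 minus batch 2 were kept in all 17 alternatives, and members called between genotypes numbered 0 in every alternative but the 4 deepest footprint libraries. Depth limits the footprint and ratio values of batch 3, which rest on 0 to 47 counts for all members but Abcg1 and Pltp. The cause was not tested for any value below.

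With DESeq2, the genes called numbered 11 for the genotype difference in total RNA, 3 for the genotype difference in footprints, 9 for the genotype difference in the ratio and 174 for the batch 3 minus batch 1 difference in the ratio. Members called numbered 2 for the batch 2 minus batch 1 difference in the ratio. Mylip turned to 0.066 in the batch 2 minus batch 1 difference in footprints. Mylip turned to 0.028 in the batch 2 minus batch 1 difference in the ratio. Apoe turned to 0.072 and Pltp to 0.12 in the batch 3 minus batch 1 difference in the ratio. With limma voom, the genes called numbered 1 for the genotype difference in footprints, 629 for the batch 2 minus batch 1 difference in footprints and 293 for the batch 3 minus batch 1 difference in the ratio. Members called numbered 0 for the batch 2 minus batch 1 difference in footprints. Abcg1 turned to -0.062, Nr1h2 to -0.020 and Pltp to -0.073 in the genotype difference in total RNA. Abcg1 turned to 0.20 in the batch 2 minus batch 1 difference in total RNA. Mylip turned to 0.077 in the batch 2 minus batch 1 difference in footprints. Nr1h2 turned to 0.19 in the batch 3 minus batch 2 difference in footprints. Apoe turned to 0.036 in the genotype difference in the ratio. With DESeq2 size factors in the edgeR fit, Apoe turned to 0.020 and Pltp to 0.11 in the batch 3 minus batch 1 difference in the ratio. Without the count filter, the genes called numbered 10 for the genotype difference in total RNA, 159 for the genotype difference in footprints, 26 for the genotype difference in the ratio and 103 for the batch 3 minus batch 1 difference in the ratio. Members called numbered 7 for the batch 3 minus batch 1 difference in footprints, for which the share over all genes is not given. Without the batch term, the genes called numbered 1 for the genotype difference in footprints. Apoe turned to 0.63 in the genotype difference in total RNA. Apoe turned to 0.38, Abcg1 to -0.20 and Nr1h2 to -0.49 in the genotype difference in footprints. Abcg1 turned to -0.28, Nr1h2 to -0.70 and Pltp to -0.20 in the genotype difference in the ratio. Without the genotype term, Abcg1 turned to 0.0074 in the batch 2 minus batch 1 difference in total RNA. Same-numbered KO and WT cultures share only a number: their deviations correlated with 0.03 to 0.81 in total RNA and 0.07 to 0.33 in footprints, and not every KO culture correlated best with its own number. With that number as a replicate block, the genes called numbered 0 for the genotype difference in total RNA and 3 for the genotype difference in footprints. Apoe turned to 0.073 in the genotype difference in total RNA. Nr1h2 turned to -0.23 in the genotype difference in footprints. With the culture as a replicate block in the ratio fit, the genes called numbered 2311 for the batch 2 minus batch 1 difference in the ratio and 230 for the batch 3 minus batch 1 difference in the ratio. Members called numbered 4 for the batch 2 minus batch 1 difference in the ratio. Abcg1 turned to -0.040 in the genotype difference in the ratio. Pltp turned to 0.045 in the batch 3 minus batch 1 difference in the ratio. In the 4 cultures whose footprint library held at least 1000000 counts, the genes called numbered 1413 for the genotype difference in footprints, 1936 for the batch 2 minus batch 1 difference in footprints and 2 for the genotype difference in the ratio. Members called numbered 4 for the genotype difference in footprints and 6 for the batch 2 minus batch 1 difference in footprints. Apoe turned to 0.61 and Mylip to 0.17 in the genotype difference in footprints. Apoe turned to 0.040, Abca1 to 0.025, Abcg1 to -0.0062, Mylip to 0.17 and Lpcat3 to 0.099 in the genotype difference in the ratio. Without batch 2, the genes called numbered 8 for the genotype difference in total RNA and 2 for the genotype difference in footprints. Abcg1 turned to -0.21 and Pltp to -0.16 in the genotype difference in total RNA. Abca1 turned to 0.017, Abcg1 to -0.28 and Pltp to -0.24 in the genotype difference in footprints. Abca1 turned to 0.077, Abcg1 to -0.062, Nr1h2 to -0.37 and Pltp to -0.056 in the genotype difference in the ratio. Without batch 3, the genes called numbered 1 for the genotype difference in total RNA and 19 for the genotype difference in footprints. Apoe turned to 0.065, Nr1h3 to 0.10 and Nr1h2 to -0.041 in the genotype difference in total RNA. Abcg1 turned to -0.067 and Lpcat3 to 0.099 in the genotype difference in the ratio.

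Leaving out each culture in turn, the genes called ran over 2 to 9 for the genotype difference in total RNA, 1345 to 3041 for the batch 2 minus batch 1 difference in total RNA, 1 to 269 for the genotype difference in footprints, 597 to 1193 for the batch 2 minus batch 1 difference in footprints, 990 to 1591 for the batch 3 minus batch 1 difference in footprints, 974 to 1760 for the batch 3 minus batch 2 difference in footprints, 328 to 1347 for the batch 2 minus batch 1 difference in the ratio and 16 to 83 for the batch 3 minus batch 1 difference in the ratio. The members called ran over 1 to 3 for the batch 2 minus batch 1 difference in total RNA, 1 to 4 for the batch 2 minus batch 1 difference in footprints, 4 to 7 for the batch 3 minus batch 1 difference in footprints and 0 to 2 for the batch 2 minus batch 1 difference in the ratio. Apoe ran from -0.15 to 0.056, Abcg1 from -0.21 to 0.23, Nr1h3 from -0.28 to 0.049, Nr1h2 from -0.11 to 0.094 and Pltp from -0.16 to 0.25 in the genotype difference in total RNA. Abcg1 ran from -0.16 to 0.34 and Pltp from -0.052 to 0.50 in the batch 2 minus batch 1 difference in total RNA. Nr1h3 ran from -0.083 to 0.22 in the batch 3 minus batch 1 difference in total RNA. Nr1h3 ran from -0.26 to 0.076 in the batch 3 minus batch 2 difference in total RNA. Abca1 ran from -0.37 to 0.0027, Abcg1 from -0.28 to 0.38, Nr1h2 from -0.25 to 0.38 and Pltp from -0.23 to 0.29 in the genotype difference in footprints. Mylip ran from -0.43 to 0.71 and Pltp from -0.48 to 0.10 in the batch 2 minus batch 1 difference in footprints. Abcg1 ran from -0.016 to 0.45 and Nr1h2 from -0.31 to 0.17 in the batch 3 minus batch 2 difference in footprints. Abca1 ran from -0.11 to 0.13, Abcg1 from -0.055 to 0.21, Nr1h2 from -0.35 to 0.43, Mylip from -1.06 to 0.15, Pltp from -0.11 to 0.23 and Lpcat3 from -0.33 to 0.14 in the genotype difference in the ratio. Mylip ran from -0.38 to 0.84 in the batch 2 minus batch 1 difference in the ratio. Apoe ran from -0.33 to 0.069, Mylip from -2.47 to 0.26 and Pltp from -0.34 to 0.18 in the batch 3 minus batch 1 difference in the ratio. The fewest genes called in batch 2 minus batch 1 came without WT4 in all 3 measures, the most in the genotype difference in total RNA and footprints without KO1, and the fewest in batch 3 minus batch 1 footprints and ratio and in batch 3 minus batch 2 footprints without KO5.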
